A study of Mus musculus with 6 samples.

Results

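Mitosis genes encode the proteins that carry a cell from the end of DNA replication to its division into daughter cells. A list of 40 such genes was read in macrophages of WT and ATF3-CKO genotype. The list was taken by name, with earlier results of these data known. A member was measured where the array annotation gave a probe set exactly 1 gene symbol and that symbol was the member's, which held for 37 of the 40 genes, each with 1 probe set, among 30176 genes so named. No probe set of this kind was found for Ccnb1 or Foxm1, and Sgol1 is annotated under its current symbol Sgo1 and is given apart. The 37 members fall by known role into 2 chromosome proteins, 5 regulators of entry into mitosis, 12 genes of the kinetochore and its checkpoint, 8 of the spindle, 3 of anaphase onset and 7 of cytokinesis.

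The cells were bone marrow-derived macrophages (BMDMs) from adult C57BL/6J mice, grown with 20 ng/ml macrophage colony-stimulating factor (M-CSF), a growth factor that drives both the differentiation and the division of macrophages. All had received recombinant GAS6 (rGAS6), which binds the receptor tyrosine kinase MerTK, and were collected 24 h past hypoxia/reoxygenation (HR). There were 3 arrays labelled WT and 3 labelled ATF3-CKO, and all 6 shared the stimulation and HR. In the study, ATF3-CKO mice carried floxed Atf3 alleles and a Cre at the Lyz2 gene, which is active in myeloid cells in general, and the WT controls were floxed mice without the Cre, so the Cre and the loss of ATF3 cannot be told apart. Each value is a level, the log2 of a probe set's normalized intensity, and each difference is the mean level of the arrays labelled ATF3-CKO minus that of the WT arrays on the log2 scale. Levels of different probe sets depend on their probes and are not compared as amounts of RNA. The labels call the arrays biological replicates, and p-values measure the spread between these arrays.

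Before mitosis, cyclins A and B activate CDK1, and the kinases PLK1, Aurora A and Aurora B then drive chromosome condensation, assembly of a bipolar spindle and attachment of chromosomes to it through kinetochores. The anaphase-promoting complex with CDC20 releases the sister chromatids once every kinetochore is attached, and the midzone and contractile ring split the cell. Transcripts of most of these genes peak in G2 and M phase and are low in resting cells, where the DREAM complex represses them at a promoter element called the CHR, so their summed RNA is widely read as a mark of dividing cells. In bulk RNA, fewer dividing cells and less of each transcript per cell cannot be told apart.

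As a check of the labels, the targeted gene was read first. The WT levels of Atf3 were 8.56, 8.46 and 8.38, and the arrays labelled ATF3-CKO had 9.20, 9.26 and 9.25, a difference of 0.77 (SE 0.08, limma adjusted p = 0.00538). The targeted gene was thus higher where it should be lost. A probe set that reads outside the deleted exons would check nothing, and where its probes lie was not examined. Every direction given here therefore rests on the labels, and ATF3-CKO stands for the arrays so labelled. The macrophage genes Cd68, Csf1r and Adgre1 had WT means of 18.86, 14.33 and 13.61, against a median of 4.32 over all probe sets and 2.74 over 23 background controls. Of the 7 macrophage markers measured, Itgam was lower (-3.63) and Mertk higher (1.36) on the arrays labelled ATF3-CKO. Array medians lay between 4.22 and 4.42, and arrays of a group correlated at 0.993 to 0.997 over all probe sets, against 0.988 to 0.992 for arrays of different groups.

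The mitosis genes were lower on the arrays labelled ATF3-CKO. Of the 37 measured, 25 fell at an adjusted p under 0.05, 0 rose and 12 did not pass, by limma with Benjamini-Hochberg adjustment over all 65956 probe sets. The share lower was 67.6%, against 1.68% of all probe sets and 2.56% of all genes; 1.17% of all probe sets were higher. The median difference was -0.79, which is 1.73-fold, and it ran from -2.85 for Mki67 to -0.12 for Espl1, while the median over all genes was 0.05. All 37 differences were negative, against 36.6% of all genes. Since the list was chosen with earlier results of these data known, these shares describe the list and are not a test of it.

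On looser measures, 35 of the 37 had an unadjusted p under 0.05 and were lower, against 6.2% of all probe sets. A fold of 2 or more, the study's own size rule, was met by 12, against 0.838%. All 3 arrays labelled ATF3-CKO lay below all 3 WT arrays for 36 of the 37, against 7.51% of all probe sets, with Espl1 as the exception. In 21 members the gap between the groups was wider than the range within either group, a count that was not taken over all probe sets. The number that passed depended on the arrays: leaving out WT replicate 1, 2 or 3 gave 15, 21 or 19, and leaving out ATF3-CKO replicate 1, 2 or 3 gave 7, 6 or 4. Ccnb2, Cenpf, Kif11 and Mki67 passed in each of these fits, and the median difference stayed between -0.88 and -0.69.

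**Figure D1:**
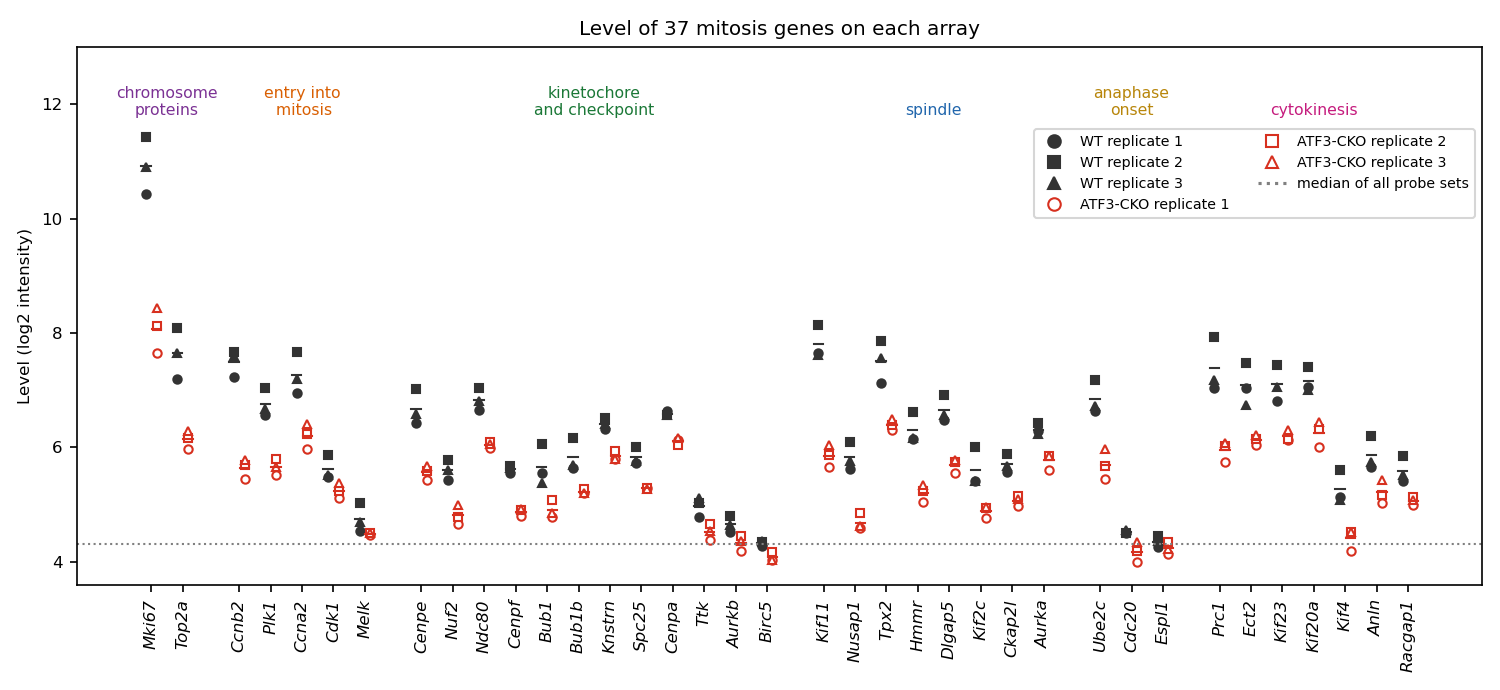
Level of each mitosis gene on each array, as log2 intensity on the vertical axis, with genes grouped by role along the horizontal axis. Filled black symbols are the 3 WT arrays, open red symbols the 3 arrays labelled ATF3-CKO, short lines the group means and the dotted line the median of all probe sets at 4.32; the red symbols lie below the black ones for every gene but Espl1.

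Most promoters of these genes hold a motif that was not used to pick the list. The CHR is a known element of mitosis genes, so a high share describes the kind of list and is no result of these arrays. RefSeq's table for GRCm38.p6 gives 250 bases before to 50 after the start of transcription for 32 of the 37 members, and it holds no entry for Aurkb, Ccna2, Dlgap5, Kif20a or Tpx2. A member counted as having a motif if any of its entries held it, while shares over the table count each entry. The CHR, searched as TTTGAA on either strand (TTCAAA on the other), was present in 25 of the 32 members (78.1%), against 17.9% of 32851 promoters of the table. The CCAAT box, bound by NF-Y and searched as CCAAT or ATTGG, was present in 24 (75.0%), against 37.4%, and both motifs together in 22 (68.8%), against 6.95%. Neither motif was found in the windows of Birc5, Knstrn, Melk, Nuf2 and Nusap1. The promoters of the 5 members with the largest differences in level are shown, each with both motifs, from 250 bases before the start to 30 after it, with CHR and CCAAT letters in capitals:
Mki67: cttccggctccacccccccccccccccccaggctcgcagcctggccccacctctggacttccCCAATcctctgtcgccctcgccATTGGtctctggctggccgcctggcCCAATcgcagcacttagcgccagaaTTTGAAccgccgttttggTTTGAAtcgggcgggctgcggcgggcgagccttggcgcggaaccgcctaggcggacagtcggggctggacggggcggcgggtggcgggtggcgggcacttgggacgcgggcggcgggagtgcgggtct
Kif11: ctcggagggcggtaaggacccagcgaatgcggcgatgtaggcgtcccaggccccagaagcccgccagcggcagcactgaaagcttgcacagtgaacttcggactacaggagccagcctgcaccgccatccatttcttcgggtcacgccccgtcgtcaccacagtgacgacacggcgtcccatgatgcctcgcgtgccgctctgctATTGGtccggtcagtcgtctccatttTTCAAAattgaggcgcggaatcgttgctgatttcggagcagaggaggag
Ccnb2: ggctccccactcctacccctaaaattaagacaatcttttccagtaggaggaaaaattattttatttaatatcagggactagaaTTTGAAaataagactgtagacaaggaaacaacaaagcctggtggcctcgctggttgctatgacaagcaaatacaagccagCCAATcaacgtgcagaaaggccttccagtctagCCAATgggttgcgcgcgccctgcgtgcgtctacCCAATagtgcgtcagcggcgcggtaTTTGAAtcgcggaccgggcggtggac
Top2a: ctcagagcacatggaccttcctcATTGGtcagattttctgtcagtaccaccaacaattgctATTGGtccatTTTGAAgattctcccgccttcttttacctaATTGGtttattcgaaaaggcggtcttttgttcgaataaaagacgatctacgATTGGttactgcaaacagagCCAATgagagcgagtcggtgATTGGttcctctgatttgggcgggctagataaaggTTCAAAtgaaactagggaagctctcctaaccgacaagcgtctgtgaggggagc
Prc1: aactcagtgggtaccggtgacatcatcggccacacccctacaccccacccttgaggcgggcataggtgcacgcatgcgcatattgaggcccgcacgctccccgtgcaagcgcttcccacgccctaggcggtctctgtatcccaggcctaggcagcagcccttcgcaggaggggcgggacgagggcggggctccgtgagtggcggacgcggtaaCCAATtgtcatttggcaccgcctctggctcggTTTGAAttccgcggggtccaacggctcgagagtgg

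These lie at chr7:135716350-135716629 on the minus strand for Mki67, chr19:37376132-37376411 on the plus strand for Kif11, chr9:70421525-70421804 on the minus strand for Ccnb2, chr11:99024160-99024439 on the minus strand for Top2a and chr7:80294201-80294480 on the plus strand for Prc1. The CHR nearest the start began at -98 in Mki67, -19 in Kif11, 5 in Ccnb2, -23 in Top2a and -5 in Prc1, counted from the start of transcription. CCAAT letters occurred at 3 places in Mki67, 1 in Kif11, 3 in Ccnb2, 6 in Top2a and 1 in Prc1. Among the 32 members, the median difference was -0.75 in the 25 with a CHR and -0.75 in the 7 without, and -0.81 in the 24 with a CCAAT box and -0.68 in the 8 without. ATF3 belongs to a family that binds the CRE (TGACGTCA) and AP-1 (TGANTCA) motifs, which were searched on both strands. The CRE was found in 2 of the 32 members (6.25%, Cenpe and Ndc80) against 1.79% of all promoters, and the AP-1 motif in 0 against 7.81%. A match describes letters in a window and does not show a bound site.

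The 2 chromosome proteins had the largest role median, -2.18. Mki67 encodes Ki-67, which coats mitotic chromosomes and is the standard marker of cycling cells. Its levels were 10.44, 11.42 and 10.90 in WT, against 7.64, 8.12 and 8.45 on arrays labelled ATF3-CKO. The lowest WT array was 1.99 above the highest of the others, and the gene fell 7.21-fold (difference -2.85, SE 0.28, 95% interval -3.52 to -2.18, limma adjusted p = 0.00435). Top2a, the topoisomerase that untangles sister chromatids, read 7.20, 8.09 and 7.65 in WT and 5.97, 6.16 and 6.29 in ATF3-CKO. It fell 2.84-fold (difference -1.51, SE 0.22, adjusted p = 0.0168), with groups that did not overlap.

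Of 5 regulators of entry into mitosis, 3 fell, with a role median of -1.06. Ccnb2, cyclin B2, a partner of CDK1, was at 7.22, 7.67 and 7.59 in WT and 5.44, 5.68 and 5.77 in ATF3-CKO. Its fall of 3.64-fold (difference -1.86, SE 0.15, adjusted p = 0.00165) had the smallest p among the members. The kinase Plk1, which acts on centrosomes and kinetochores and in cytokinesis, had levels of 6.57, 7.03 and 6.66 against 5.51, 5.80 and 5.65. Ccna2, cyclin A2, which acts in both S phase and G2, had 6.94, 7.67 and 7.19 against 5.97, 6.23 and 6.41. Plk1 fell by 1.10 and Ccna2 by 1.06 on the log2 scale (adjusted p = 0.0115 and 0.0416), in both with every array labelled ATF3-CKO below every WT array. Cdk1, the kinase these cyclins activate, did not pass: its difference was -0.38 (95% interval -0.69 to -0.07, adjusted p = 0.19), smaller in size than those of both measured cyclins. The interval of Cdk1 overlapped that of Ccna2 (-1.53 to -0.60), and the sizes were not compared by a test. Melk, a kinase of dividing cells, had a difference of -0.26 (interval -0.56 to 0.04, adjusted p = 0.352), with the groups only 0.03 apart.

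Of 12 kinetochore and checkpoint genes, 7 fell, and the role median was -0.58 (range -1.11 to -0.25). Cenpe, the motor that carries chromosomes to the spindle equator, was at 6.42, 7.02 and 6.59 in WT and 5.43, 5.59 and 5.67 in ATF3-CKO, and fell 2.16-fold (difference -1.11, SE 0.16, adjusted p = 0.0168). It was the 1 member of this role with a fold of 2 or more. Ndc80, Nuf2 and Spc25 are subunits of the NDC80 complex, which holds the microtubule end at the kinetochore. Ndc80 was at 6.66, 7.04 and 6.81 in WT and at 5.98, 6.09 and 6.05 in ATF3-CKO. Nuf2 was at 5.43, 5.79 and 5.60 against 4.67, 4.78 and 4.98. Spc25 was at 5.73, 6.01 and 5.76 against 5.29, 5.28 and 5.28. The 3 subunits fell by 0.79, 0.80 and 0.55 on the log2 scale (adjusted p = 0.0164, 0.0234 and 0.0329), each with groups apart.

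Cenpf, a large protein of the outer kinetochore, had tight groups, 5.55, 5.68 and 5.64 against 4.80, 4.90 and 4.92. Its difference of -0.75 (SE 0.08, adjusted p = 0.00553) was about the same size as that of Bub1, which did not pass. The WT levels of Bub1, a checkpoint kinase, were spread over 5.56, 6.06 and 5.37, against 4.79, 5.08 and 4.85 (difference -0.75, SE 0.18, adjusted p = 0.0829). Knstrn, a spindle and kinetochore protein that aids chromosome alignment, read 6.31, 6.51 and 6.41 against 5.81, 5.94 and 5.80. Cenpa, the histone H3 variant that marks the centromere, read 6.64, 6.56 and 6.57 against 6.14, 6.04 and 6.17. Knstrn fell by 0.56 and Cenpa by 0.47 (adjusted p = 0.0241 and 0.0282), the latter being the smallest difference that passed. The other 4 did not pass: the checkpoint proteins Bub1b (difference -0.61, interval -0.95 to -0.27) and Ttk (-0.45, -0.73 to -0.17), and the chromosomal passenger proteins Aurkb (-0.32, -0.58 to -0.07) and Birc5 (-0.25, -0.44 to -0.06). Their adjusted p-values were 0.0797, 0.102, 0.184 and 0.17, and none of these intervals reached 0. Sgo1, which protects centromeric cohesion and stands for the listed Sgol1, was at 5.18, 5.56 and 5.56 against 4.86, 4.96 and 4.97, a difference of -0.51 (adjusted p = 0.0785), and is not counted among the 37.

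Of 8 spindle genes 7 fell, with a role median of -1.03. Kif11 encodes the kinesin that pushes spindle poles apart, and its levels were 7.65, 8.14 and 7.62 in WT and 5.65, 5.86 and 6.04 in ATF3-CKO. It fell 3.87-fold (difference -1.95, SE 0.17, interval -2.34 to -1.56, adjusted p = 0.0024), and the gap of 1.58 between the groups was wider than the 0.52 range of the WT arrays. Tpx2, which activates Aurora A and nucleates microtubules, had 7.13, 7.86 and 7.56 against 6.31, 6.39 and 6.49. Nusap1, a microtubule bundling protein, had 5.62, 6.10 and 5.76 against 4.59, 4.85 and 4.62. Hmmr, which organises spindle poles, had 6.15, 6.62 and 6.16 against 5.04, 5.24 and 5.34. The folds of these 3 were 2.17, 2.20 and 2.15 (adjusted p = 0.0242, 0.00974 and 0.0147), and no group overlapped another.

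Dlgap5, which stabilises kinetochore microtubules, was at 6.48, 6.91 and 6.56 in WT and 5.55, 5.75 and 5.78 in ATF3-CKO. Ckap2l, a spindle pole protein, was at 5.57, 5.89 and 5.67 against 4.97, 5.15 and 5.09. Aurka, the Aurora kinase of the centrosome, was at 6.28, 6.43 and 6.23 against 5.61, 5.86 and 5.85. They fell by 0.96, 0.64 and 0.54 on the log2 scale (adjusted p = 0.015, 0.0298 and 0.0449). The difference of Aurka stood at -0.54 (interval -0.78 to -0.30) beside -1.12 (-1.54 to -0.70) for its activator Tpx2. These intervals overlapped, and the sizes were not compared by a test. Kif2c, a kinesin that removes faulty attachments, did not pass (difference -0.72, interval -1.12 to -0.31, adjusted p = 0.0819), and its WT levels spread from 5.40 to 6.01.

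Among the 3 genes of anaphase onset 1 fell. Ube2c, the ubiquitin-conjugating enzyme of the anaphase-promoting complex, was at 6.64, 7.18 and 6.72 in WT and 5.45, 5.68 and 5.97 in ATF3-CKO, a fall of 2.22-fold (difference -1.15, SE 0.18, adjusted p = 0.025). The other 2 had little signal. Cdc20, the activator of the complex, had WT levels of 4.50, 4.50 and 4.56 and a difference of -0.34 (interval -0.60 to -0.09, adjusted p = 0.152). Espl1, the separase that cuts cohesin, was at 4.25, 4.45 and 4.36 against 4.14, 4.35 and 4.23, close to the median of all probe sets, and the groups overlapped (difference -0.12, interval -0.34 to 0.10, adjusted p = 0.588).

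Of 7 cytokinesis genes 5 fell, and the role median was -0.90. Prc1, which bundles the microtubules of the midzone, was at 7.04, 7.93 and 7.18 in WT and 5.75, 6.03 and 6.08 in ATF3-CKO, and fell 2.70-fold (difference -1.43, SE 0.23, adjusted p = 0.0265). Kif4, the kinesin that works with PRC1, read 5.13, 5.61 and 5.08 against 4.20, 4.52 and 4.52. Kif20a, another midzone kinesin, read 7.057, 7.414 and 6.997 against 6.00, 6.32 and 6.45. They fell by 0.86 and 0.90 on the log2 scale (adjusted p = 0.0462 and 0.0333), with groups apart. Kif23 and Racgap1 form centralspindlin, the complex that recruits ECT2 to start furrowing. Kif23 read 6.81, 7.43 and 7.06 against 6.12, 6.15 and 6.30, and Ect2 read 7.04, 7.48 and 6.73 against 6.04, 6.15 and 6.21. Kif23 fell by 0.91 and Ect2 by 0.95 (adjusted p = 0.0333 and 0.0446). Racgap1 (difference -0.53, interval -0.82 to -0.24, adjusted p = 0.0774) and Anln, a scaffold of the contractile ring (-0.65, -1.05 to -0.25, adjusted p = 0.102), did not pass.

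**Figure D2:**
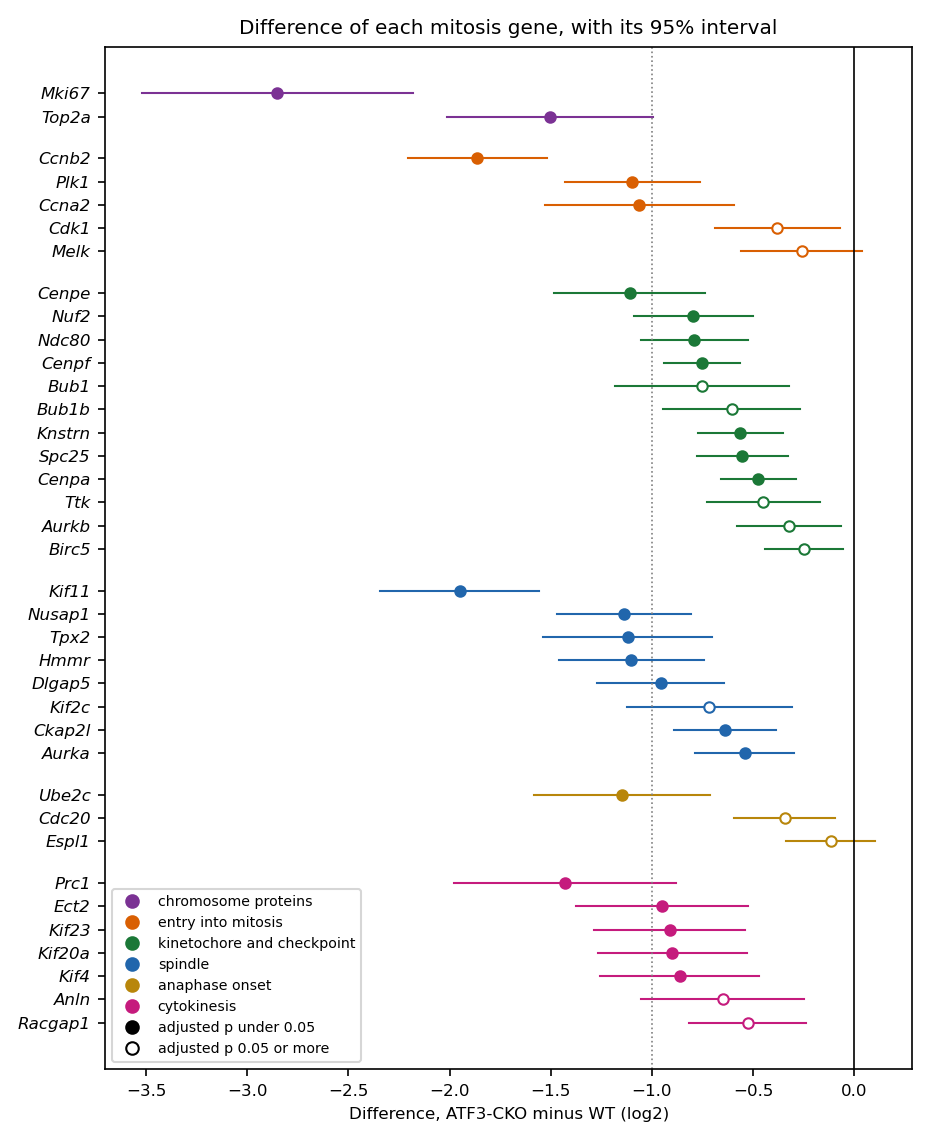
Difference in level between arrays labelled ATF3-CKO and WT arrays (log2, horizontal axis) for each of the 37 mitosis genes, in rows by role. Circles are fitted differences, lines their 95% intervals, filled circles the 25 genes with an adjusted p under 0.05, and the dotted line marks a fall of 2-fold; 35 of the intervals lie wholly below 0, all but those of Melk and Espl1.

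The size of the difference moved with the signal of the probe set, and the differences between roles were not tested. Across the 37 members, the mean WT level and the difference had a Pearson r of -0.89 and a Spearman rho of -0.83, a description in which all points share the same 6 arrays and each point's WT mean enters both measures. With the mean over all 6 arrays in place of the WT mean, r was -0.83 and rho -0.74. All 18 members with a 6-array mean over 6 fell, with a median difference of -1.08, while 7 of the 19 others did, with a median of -0.61. The median 6-array mean was 6.273 in the 25 that fell and 4.999 in the 12 that did not pass. By role, median 6-array means were 8.19 for chromosome proteins, 6.61 for cytokinesis, 6.21 for entry, 5.90 for spindle, 5.41 for kinetochore and 4.35 for anaphase onset, so the roles with the smallest median differences also had the least signal. Among the 13485 genes with a 6-array mean within the members' range of 4.20 to 9.50, 3.64% were lower and the median difference was 0.03.

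**Figure D3:**
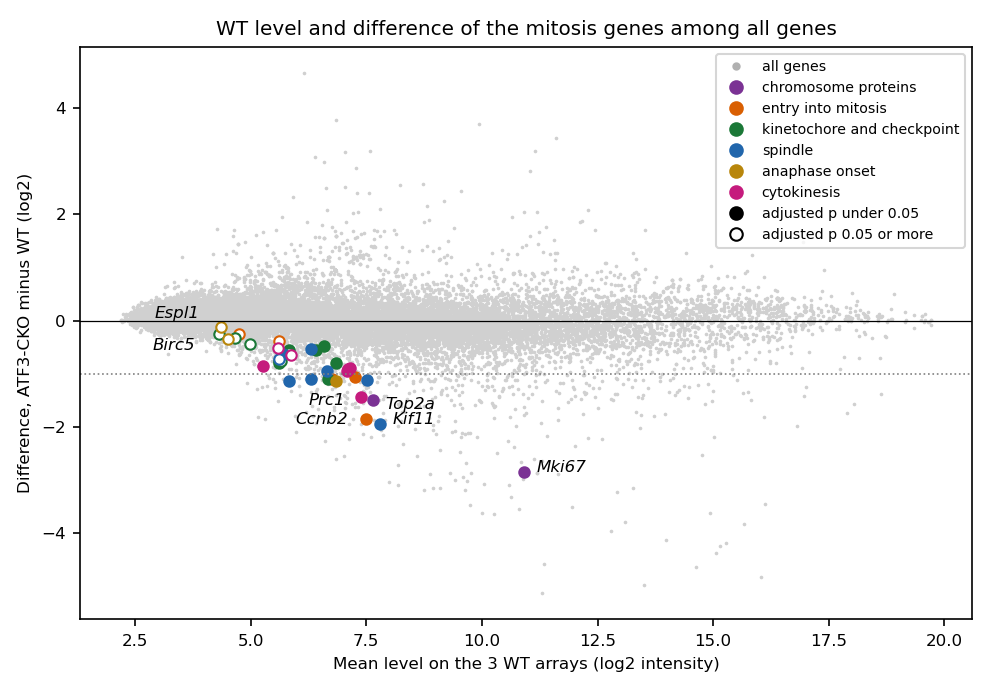
Mean level on the 3 WT arrays (log2 intensity, horizontal axis) and difference between arrays labelled ATF3-CKO and WT arrays (log2, vertical axis), with all genes in grey and the mitosis genes coloured by role. Filled circles had an adjusted p under 0.05, and the dotted line marks a fall of 2-fold; the members run from Espl1 and Birc5 near 0 at little signal to Mki67 at -2.85.

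The members moved together from array to array within the groups as well. WT replicate 2 was the highest WT array for 33 of the 37 genes and WT replicate 1 the lowest for 29. Among the arrays labelled ATF3-CKO, replicate 1 was the lowest for 34, and replicate 3 the highest for 23 and replicate 2 for 13. Set against each gene's WT mean, the median of the 37 was -0.17, 0.27 and -0.07 in WT and -0.87, -0.74 and -0.71 in ATF3-CKO. These medians spanned 0.44 within WT, less than the 0.53 between the lowest WT median and the highest of the arrays labelled ATF3-CKO. The log2 of the members' summed intensity was 12.0, 12.7 and 12.3 in WT and 10.7, 10.9 and 11.0 in ATF3-CKO.

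**Figure D4:**
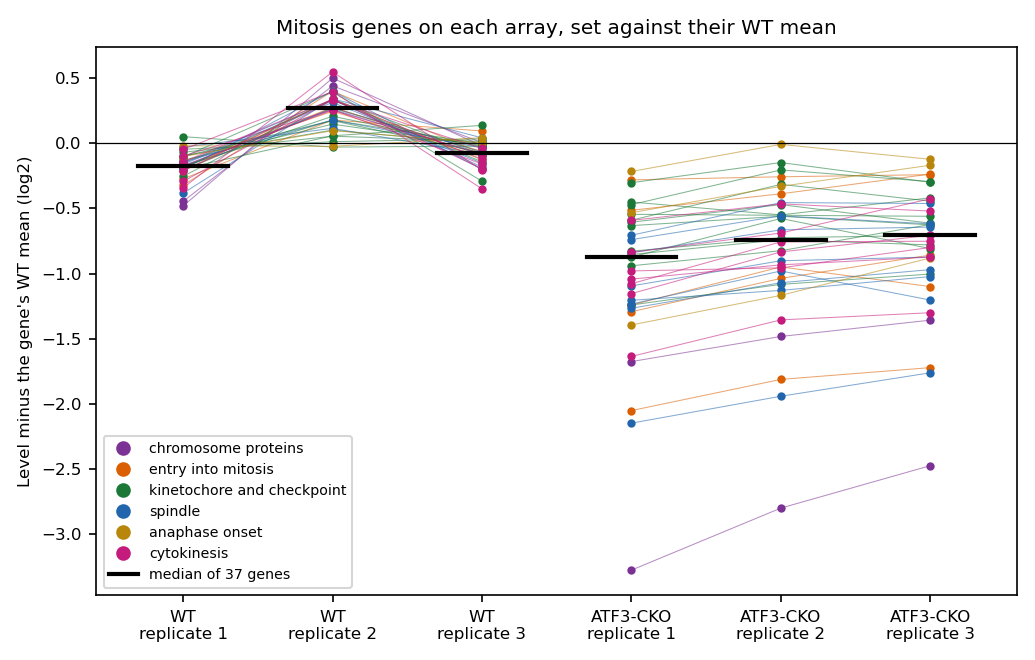
Level of each mitosis gene minus its WT mean (log2, vertical axis) on each of the 6 arrays (horizontal axis), coloured by role. Thin lines join the arrays of a group for each gene and black bars are the median of the 37 genes; the bars lie between -0.17 and 0.27 on the WT arrays and between -0.87 and -0.71 on those labelled ATF3-CKO.

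Other genes of mitosis, in 7 lists that share no gene with the 40, mostly did not pass the test. Of 165 measured, 7 were lower, 3 higher and 155 neither. A negative difference was found in 138, against 36.6% of all genes, with a median of -0.15. On the looser measures, 64 were lower at an unadjusted limma p under 0.05, against 6.2% of all probe sets. In 74 of them all arrays labelled ATF3-CKO lay below all WT arrays, against 7.51% of all probe sets. The shares lower can be read against the 2.56% of all genes: 4.24% of these genes and 67.6% of the mitosis genes. The 7 lists go by function, and whether the RNA of their genes peaks in G2 and M phase was not examined. They also hold genes such as Rhoa and Ppp1ca, with WT means of 15.34 and 15.14, so these shares do not compare like sets of genes. Split by their WT mean, 4 of the 110 other mitotic genes with a WT mean over 6 were lower, with a median of -0.13, and 3 of the 55 others, with a median of -0.25. Their list medians ran from -0.27 for cohesin and condensin genes to -0.09 for genes that control mitotic transcription.

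The 7 that fell came from 6 of the lists. Knl1, the scaffold that holds the NDC80 complex and BUB1 at the kinetochore, was at 6.04, 6.34 and 6.18 in WT and 4.91, 5.14 and 5.23 in ATF3-CKO (difference -1.09, adjusted p = 0.00611), the 1 of 37 other kinetochore genes to pass. Cdkn3, a phosphatase of CDK1 and CDK2, was at 7.38, 7.49 and 7.41 against 5.54, 5.96 and 6.10 (difference -1.56, adjusted p = 0.00347). The kinase Wee1, which holds CDK1 inactive before mitosis, fell by 0.63 (adjusted p = 0.0352), and both come from 21 other kinases, phosphatases and cyclins. E2f8, a repressor of the E2F family, fell by 1.32 (adjusted p = 0.00269), the 1 of 17 transcriptional regulators to pass. Stil, of the centriole, fell by 0.90 (1 of 34 other spindle and centrosome genes), Shcbp1, of the midbody, by 0.99 (1 of 17 other cytokinesis genes) and Ncapg, of condensin, by 0.56 (1 of 21). Their adjusted p-values were 0.0182, 0.00864 and 0.0466.

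The 3 that rose were Nek6, a mitotic kinase (8.15, 8.24 and 8.01 in WT, 9.03, 8.88 and 8.98 in ATF3-CKO), Plk3, a polo-like kinase known as a stress response gene (6.59, 6.81 and 6.72, against 7.66, 7.37 and 7.71), and Pttg1, the securin that holds separase inactive (6.54, 6.65 and 6.61, against 7.14, 7.14 and 7.42). Their differences were 0.83, 0.87 and 0.63 (adjusted p = 0.00624, 0.0124 and 0.0262). Of 18 genes of the anaphase-promoting complex and its regulators, Pttg1 was the 1 that passed in either direction, and the list's median was -0.11.

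The phases before mitosis gave smaller medians. Of 38 genes of DNA replication and S phase, 1 was lower (2.63%, against 2.56% of all genes), Mcm4 of the replicative helicase (difference -0.51, adjusted p = 0.0317). A negative difference was found in 28, against 36.6% of all genes, with a median of -0.08. At an unadjusted limma p under 0.05, 6 were lower, against 6.2% of all probe sets. In 8 all arrays labelled ATF3-CKO lay below all WT arrays, against 7.51% of all probe sets. Among 17 G1 cyclins and CDK inhibitors 2 were lower, both of them inhibitors. Cdkn1c, p57, was at 11.17, 10.56 and 11.11 in WT and 9.04, 9.26 and 9.31 in ATF3-CKO (difference -1.74, adjusted p = 0.00443), and Cdkn1b, p27, fell by 0.44 (adjusted p = 0.0392). That list's median was -0.10. Cdkn1a, p21, another CDK inhibitor, which is filed with the transcriptional regulators and was picked out after its values were seen, had a difference of 0.67 (interval 0.30 to 1.03, adjusted p = 0.0774) and did not pass. Whether the mitosis genes differ from these lists was not tested.

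**Figure D5:**
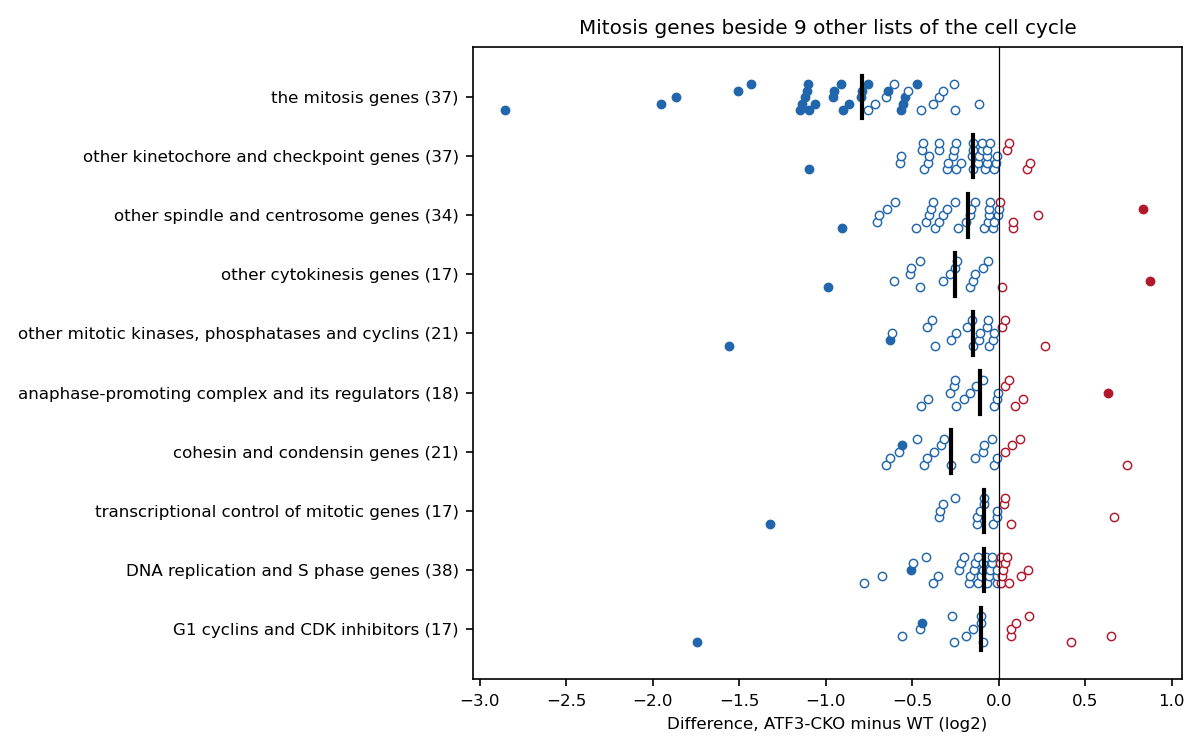
Difference between arrays labelled ATF3-CKO and WT arrays (log2, horizontal axis) for the 37 mitosis genes, in the top row, and for 9 other lists of cell cycle genes, with the number measured in parentheses. Each circle is a gene, blue below 0 and red above, filled where the adjusted p was under 0.05, and black bars are medians; the bar of the mitosis genes is at -0.79 and the others lie between -0.27 and -0.08.

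Markers of other cells that a marrow culture can hold moved with the groups in part. Of 17 markers of neutrophils and their precursors 7 were lower (Ltf, Lcn2, Ngp, S100a8, S100a9, Camp and Fcnb) and 0 higher. The share lower was 41.2%, against 2.56% of all genes. Differences ran from -5.13 to 0.76 and were negative in 13, while 2 were higher at an unadjusted limma p under 0.05. The log2 of the summed intensity of the 17 was 16.8 to 17.5 in WT and 11.9 to 13.9 in ATF3-CKO. That sum weighs the brightest markers most, and the highest WT mean was 16.03. WT replicate 2, the highest WT array for most mitosis genes, had the lowest of these WT sums, and ATF3-CKO replicate 1 was lowest in both. With 3 arrays a group, such orders cannot tell whether these markers and the mitosis genes move together, which was not tested. Elane, Mpo, Prtn3 and Ctsg, which early granulocyte precursors make, had WT means of 3.46, 3.75, 4.25 and 3.74 and ATF3-CKO means of 3.45, 3.83, 4.15 and 3.84, all under the median of all probe sets. They were picked from the 10 that did not pass and do not stand for the list, in which Ltf, Ngp, Camp and Fcnb fell. Whether the cultures held granulocyte precursors was not tested. Among 6 monocyte markers Ly6c2 was lower (difference -4.14), and the other 5 did not pass, with a difference of 0.19 for F13a1 and smaller ones for the rest. The sums of this list, 14.0 to 14.1 in WT and 9.24 to 10.7 in ATF3-CKO, mostly hold Ly6c2, whose WT mean was 13.99.

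Of 7 macrophage markers Itgam was lower (-3.63) and Mertk higher (1.36), with sums of 19.8 to 20.1 in WT and 20.2 to 20.3 in ATF3-CKO. Of 10 osteoclast markers 4 were lower (Acp5, Ctsk, Mmp9 and Itgb3), a share of 40%, against 2.56% of all genes. Their sums, which weigh the brightest markers most, were 18.7 to 18.8 in WT and 18.4 to 18.5 in ATF3-CKO. The 7 markers of haematopoietic progenitors gave no call, with 4 below the median level and sums of 7.26 to 7.34 in WT and 7.30 to 7.37 in ATF3-CKO. None of 5 erythroid markers passed (12.0 to 12.4, and 12.3 to 12.4), nor of 6 fibroblast markers (7.88 to 8.41, and 8.35 to 9.87), and of 6 lymphocyte markers Cd4 was higher (difference 1.20, sums of 6.98 to 7.31 and 7.68 to 8.13). The part of these cells in the fall of the mitosis genes was not tested.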

How the data were processed

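Total RNA of 6 BMDM samples was hybridised to Clariom D arrays, per the labels, while the study's methods name Clariom S. The authors deposited log2 values from RMA, run in Affymetrix Expression Console, which subtracts background, normalizes between arrays and summarises probe sets, and the methods add global scaling. Their versions and the genome build were not given in the sources used here. There is no read depth, so precision is set by how many arrays there were.

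Of 72688 probe sets, 6732 controls were left out. Groups came from the labels. The other 65956 went into limma 3.58.1 (R 4.3.3; lmFit, then eBayes; two-sided tests) with group as the only term, and Benjamini-Hochberg adjustment ran over all of them at 0.05. With 3 arrays a group, the smallest exact permutation p is 0.1, and no such test was run. Of these, 30638 probe sets had 1 symbol, 2176 several and 33142 none in the annotation; a gene was read from its probe set of highest mean. Members that passed are given array by array, the others by difference and interval, along with up to 4 passing genes of each other cell cycle list by smallest p, and every passing marker. The members and all lists were chosen with earlier results of these data known. The fit was tested on simulated data. Promoters were searched with Python 3.11.15. Alternatives were quantile normalization, median-centring, filters on dim probe sets and on annotation, a replicate block, eBayes with trend and robust settings, array weights, the mean of a gene's probe sets and leaving out each array.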

Additional observations from a re-analysis of the deposited data

How the results depend on the processing

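The differences of all members measured were negative under each of 14 alternatives (35 members with the filter on dim probe sets, which left out Birc5 and Espl1, and 37 in the others), and 0 members rose in any. The number of mitosis genes that fell was 23 with quantile normalization, 23 with median-centred arrays, 23 with eBayes trend and robust settings, 27 with array weights, where Bub1 and Bub1b joined, and 25 with each of the filters and with each gene's probe sets averaged. Leaving out 1 array gave between 4 and 21, with 1 fewer array in each fit. With the replicate number as a block (replicate block) it was 19, but the numbers are not said to pair the arrays. Deviations of same-numbered arrays correlated at 0.03, -0.09 and -0.07, which cannot show whether those arrays were prepared together. Of 516 values of single members under the alternatives, 424 stayed on their side of the threshold in the same direction, 90 lost the call and 2 gained one. Over all probe sets, the number higher was 447 with median-centred arrays, 515 with the replicate block, 3119 with array weights and from 141 to 982 with 1 array left out, against 773. The number lower was 2284 with array weights and from 402 to 1044 with 1 array left out, against 1108. The causes were not tested. Background controls had a median of 2.74 and the members' WT means ran from 4.33 to 10.92. Whether a dim member had less room to show a fall was not tested.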
